A study of Mus musculus with 12 samples.

Results

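The 9 genes described here encode S100 calcium-binding proteins: S100a1, S100a4, S100a6, S100a8, S100a9, S100a10, S100a11, S100a13 and S100b. They were taken by symbol from single-cell RNA-seq tables that list 31054 features in the treated libraries and 31053 in the naive ones, and each symbol matched 1 feature. For every member, raw UMIs (unique molecular identifiers, each standing for 1 captured transcript) were summed per library over barcodes that passed a filter (200 or more genes detected, no more than 10% of UMIs mitochondrial) and expressed as CPM, the gene's share of all UMIs of the library scaled to a fixed depth. Because a few cells carried nearly all S100a8 and S100a9 UMIs, the sums were also taken without cells holding 20 or more UMIs of the pair.

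The series asks how the route of transplantation shapes the cells that repopulate the mouse brain. C57BL/6J mice were conditioned with busulfan, which depletes bone marrow cells, and received lineage-negative haematopoietic stem and progenitor cells from male donors, transduced with a lentiviral vector carrying GFP (LVV.GFP), either intravenously (i.v., IV in the labels) or into a lateral ventricle of the brain (i.c.v., ICV). Mice of both routes later received untransduced bone marrow i.v., so GFP marks progeny of the transduced cells only, and the GFP- gate can also hold progeny of untransduced donor cells. From the brain of each of 4 mice, 1 female and 1 male per route and 22 to 28 weeks old by the labels, CD45+ CD11b+ CX3CR1+ cells were sorted into GFP+ microglia-like cells (MLCs) and GFP- endogenous microglia, giving 8 libraries, 2 per sort and route. The study's methods give a later age at isolation than these labels, and the counts do not settle it. GFP+ MLCs and GFP- microglia here name the whole sorts, some of whose cells carried markers of neutrophils, monocytes or dendritic cells. From naive C57BL/6J animals, 8 to 12 weeks old by the labels and a single animal by the study's description, there was 1 library each of a neuron, an astrocyte and a microglia sort and of blood leukocytes, so the naive values have no replicate and carry exact Poisson intervals that cover counting error only. With 2 mice per route, p-values measure the spread between these libraries, and a difference between routes is a difference between 2 pairs of mice.

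Kept barcodes numbered 2266 to 4555 per treated library and 341 to 1274 per naive library, with 4970758 to 16514669 UMIs per treated library. The median UMIs per cell reached 3499 in the i.v. female GFP+ library against 842 to 1308 in the other 7 treated libraries and 425 in naive microglia. Summed CPM of 8 microglia markers ran from 4470 to 8752 in GFP+ and from 9563 to 13851 in GFP- libraries. The naive neuron sort did not carry its label: 541 of its 575 cells held at least 3 oligodendrocyte markers and 3 held at least 3 neuron markers, so it is called the library labelled neurons. In the astrocyte sort, 1065 of 1146 cells held at least 3 astrocyte markers.

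S100 proteins are small EF-hand proteins, most of which work as dimers that change shape on binding calcium and then dock onto annexins, cytoskeletal proteins or other partners. S100a8 and S100a9 form calprotectin, which fills the cytosol of neutrophils and is released as an alarmin that signals through receptors such as Tlr4. S100a4, S100a6, S100a10 and S100a11 are widely used in motile and activated cells, whereas S100b is a classical marker of astrocytes and some oligodendrocyte-lineage cells.

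In the mouse genome (GRCm38), 8 of the 9 members lie on chromosome 3 and S100b lies on chromosome 10. S100a8 (chr3:90668978-90670035, plus strand) and S100a9 (chr3:90692632-90695721, minus strand) were 22.6 kb apart, S100a4 (chr3:90603771-90606045) and S100a6 (chr3:90612882-90624181) 6.84 kb apart on the plus strand, and S100a1 (chr3:90511034-90514392, minus strand) and S100a13 (chr3:90514435-90524581, plus strand) 42 bases apart, head to head. S100a11 (chr3:93520488-93526287) and S100a10 (chr3:93555080-93564643) followed 2825 kb beyond S100a9. The annotation places a gene model on the same strand, Gm42674, over S100a4, so reads in the stretch they share could have been assigned to either gene or to neither. Dip2a lies on the opposite strand over S100b (chr10:76253853-76261159), and whether the counting used strand is not given in the sources used here.

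S100a8 and S100a9 moved together across libraries, and S100a4 and S100a6 were both high in i.v. and low in i.c.v. GFP+ libraries. In the astrocyte sort S100a4 and S100a6 parted, at 24 and 605 UMIs. The promoters of these 4 members, which differed most between routes in GFP+ MLCs, are shown. Each runs 5′ to 3′ from 250 bases before to 50 bases after the RefSeq start (GRCm38.p6), with capitals marking matches on either strand to 3 motifs: TATAAA with the reverse complement TTTATA, the letters of a TATA box; GAGGAA with the reverse complement TTCCTC, those of a PU.1-type ETS site; and TTGCNNAA with the reverse complement TTNNGCAA, those of a C/EBP-type site.
S100a8, chr3:90668821-90669120, plus strand: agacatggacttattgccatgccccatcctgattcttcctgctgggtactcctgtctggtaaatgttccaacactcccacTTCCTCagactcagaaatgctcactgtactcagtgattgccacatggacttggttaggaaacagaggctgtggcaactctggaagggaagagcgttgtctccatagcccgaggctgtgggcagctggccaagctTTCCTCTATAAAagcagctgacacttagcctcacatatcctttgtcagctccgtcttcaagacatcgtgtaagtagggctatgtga
S100a9, chr3:90695672-90695971, minus strand: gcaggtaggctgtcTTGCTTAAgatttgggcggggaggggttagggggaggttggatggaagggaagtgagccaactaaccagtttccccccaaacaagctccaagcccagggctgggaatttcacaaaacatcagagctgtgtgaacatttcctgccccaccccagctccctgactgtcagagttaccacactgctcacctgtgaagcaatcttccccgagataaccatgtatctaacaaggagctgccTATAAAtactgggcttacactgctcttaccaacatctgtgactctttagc
S100a4, chr3:90603520-90603819, plus strand: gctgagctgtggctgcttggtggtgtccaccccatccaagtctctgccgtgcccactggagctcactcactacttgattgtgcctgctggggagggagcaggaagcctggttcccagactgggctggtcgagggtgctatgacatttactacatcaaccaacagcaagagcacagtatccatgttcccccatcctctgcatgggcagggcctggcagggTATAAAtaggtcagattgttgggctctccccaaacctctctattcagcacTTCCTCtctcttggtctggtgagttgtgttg
S100a6, chr3:90612644-90612943, plus strand: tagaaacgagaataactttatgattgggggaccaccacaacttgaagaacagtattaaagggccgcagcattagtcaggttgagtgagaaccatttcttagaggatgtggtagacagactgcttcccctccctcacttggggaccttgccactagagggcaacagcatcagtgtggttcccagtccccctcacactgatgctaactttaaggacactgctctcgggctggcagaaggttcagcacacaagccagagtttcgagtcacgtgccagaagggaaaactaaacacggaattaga
TATAAA occurred in 3 of the 8 members with a listed promoter, at position -30 in S100a8, -31 in S100a4 and 1 in S100a9, and in 13.6% of 32851 mouse promoters. GAGGAA occurred in 3 members, among them S100a8 with 2 matches, and in 28.3% of promoters. TTGCNNAA occurred in 1 member, S100a9 at position -236, and in 10.8% of promoters. No match overlapped another, and the S100a6, S100a1, S100a13 and S100b windows held none of these letters. A match is a description of the letters and not a measured site.

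**Figure D1:**
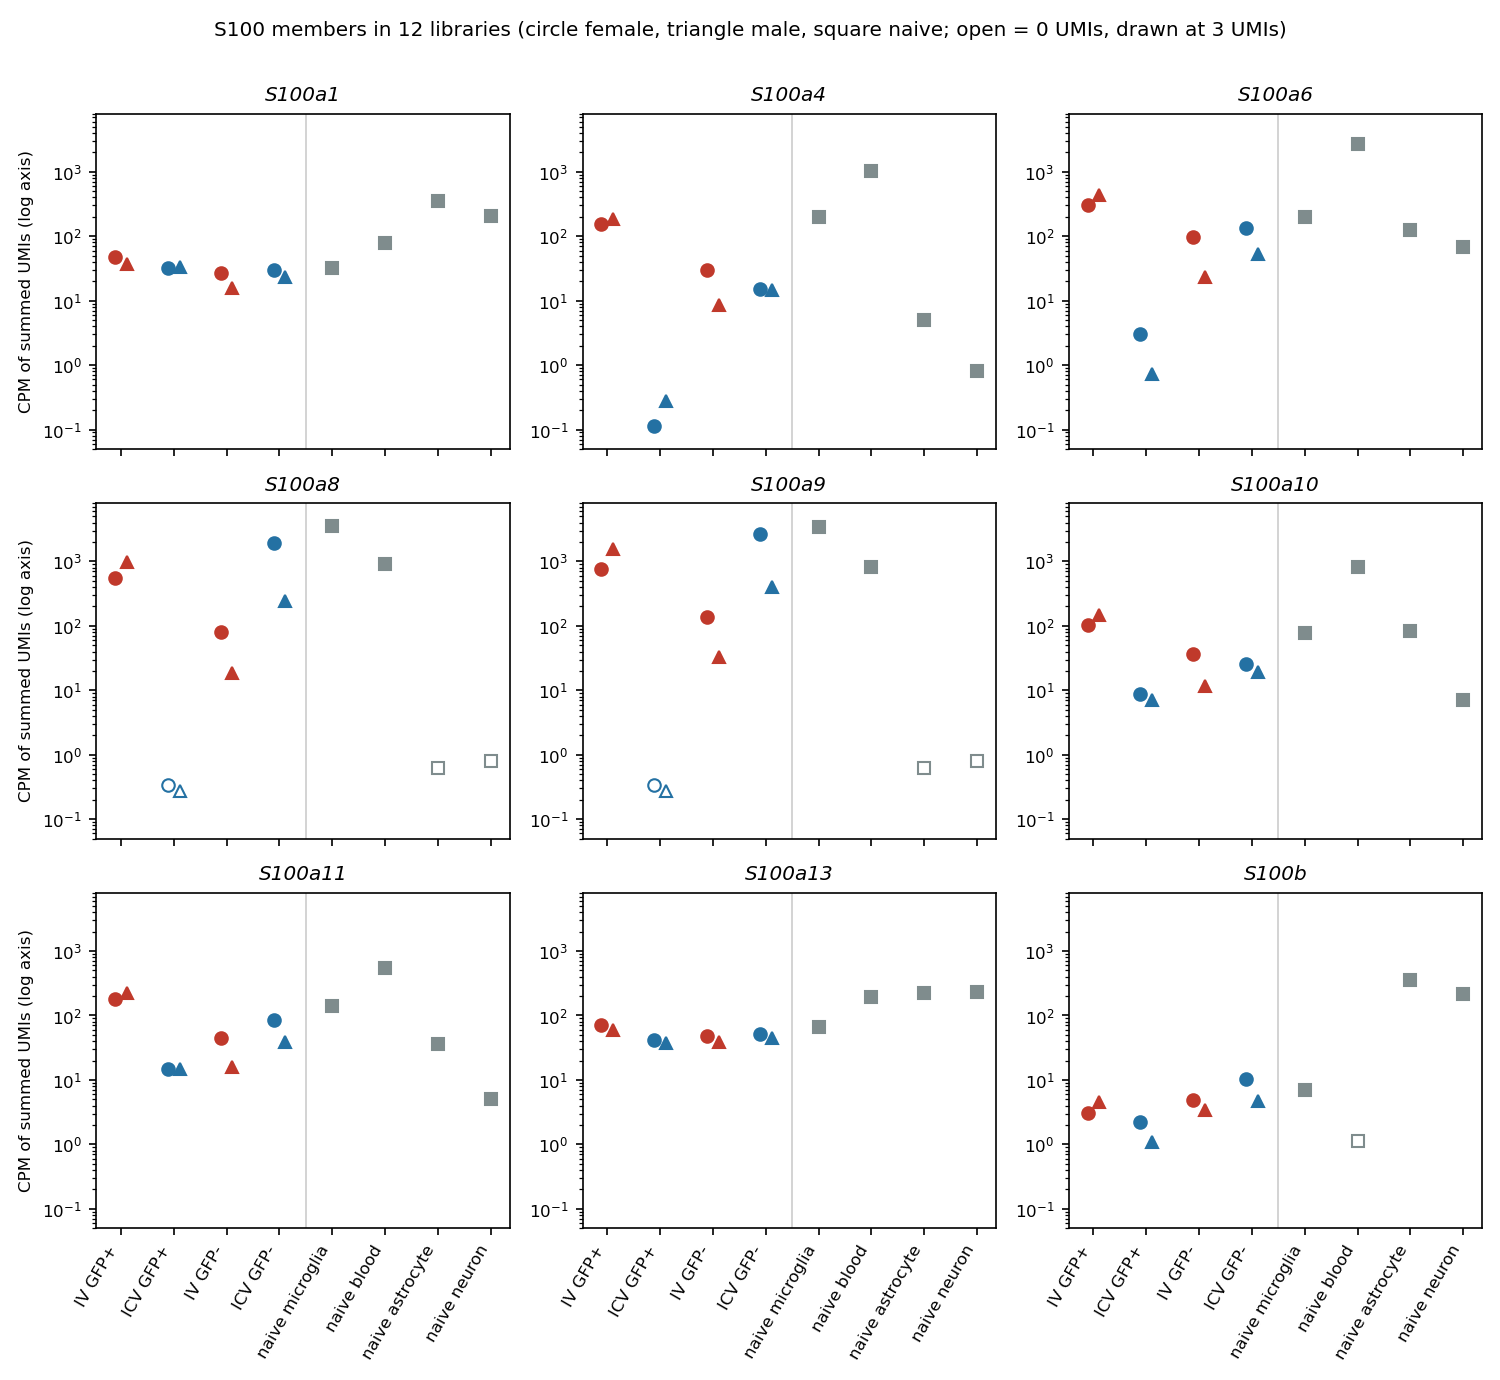
Level of each of the 9 members in the 12 libraries, as CPM of summed UMIs on a log axis, by sort, route and naive population; open symbols mark 0 UMIs, drawn at the level of 3 UMIs. S100a8 and S100a9 were at 0 in both i.c.v. GFP+ libraries, S100a4 and S100a6 were lowest among treated libraries there, and S100b peaked in the naive astrocyte sort.

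S100a8 and S100a9, the subunits of calprotectin, separated the routes in the GFP+ sort completely and were dominated by rare cells. In the GFP+ sort those cells all held at least 3 neutrophil markers, as described below. S100a8 stood at 549 CPM in the i.v. female and 994 CPM in the i.v. male GFP+ library and had no UMI in either i.c.v. GFP+ library, while the GFP- libraries held 81.7, 18.8, 1917 and 243 CPM in the i.v. female, i.v. male, i.c.v. female and i.c.v. male. S100a9 stood at 766 and 1554 CPM in the i.v. GFP+ libraries, at 0 in both i.c.v. GFP+ libraries, and at 136, 32.6, 2632 and 408 CPM in the GFP- libraries in the same order. The i.c.v. pair thus had its S100a8 and S100a9 in the GFP- sort and the i.v. pair mostly in the GFP+ sort. A count of 0 allows up to 3 UMIs per library if UMIs fall independently. Against that limit in i.c.v. GFP+ libraries, the mean of the i.v. GFP+ libraries was 2511-fold higher for S100a8 and 3773-fold for S100a9. The i.c.v. GFP- libraries were 3513-fold and 4946-fold above the limit of the GFP+ libraries of the same mice. In the i.c.v. male alone the values were 882-fold and 1482-fold. Nearly all these UMIs came from few cells, so these ratios are no lower bound on the difference. The limit in cells is given below.

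Cells with 20 or more S100a8 and S100a9 UMIs numbered 14 of 3344 in the i.v. female GFP+ library and 25 of 2266 in the i.v. male, and 2 of 2675, 3 of 4555, 20 of 4355 and 11 of 4087 in the GFP- libraries of the i.v. female, i.v. male, i.c.v. female and i.c.v. male. None were found among 2621 and 3536 cells of the i.c.v. GFP+ libraries, which, at a limit of 3 cells of the total, allows a share of up to 0.114% and 0.0848%; the exact 95% binomial upper bounds are 0.141% and 0.104%. The share reached 1.10% in the i.v. male GFP+ library (95% exact binomial interval 0.715 to 1.62%). Over the sorts it averaged 0.380% in GFP+ and 0.217% in GFP- (exact permutation test, two-sided, p = 0.714), and without the i.v. male GFP+ library the GFP+ mean was 0.140%. So few cells held 99.5% and 99.8% of the S100a8 and S100a9 UMIs in the i.v. GFP+ libraries and 86.0 to 99.3% in the GFP- libraries. Few cells lay near the threshold: 1 cell each in the i.v. male GFP-, i.c.v. female GFP- and naive blood libraries held 10 to 19 UMIs of the pair, and 1 cell in the i.c.v. male GFP- library held 20 to 29.

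The same cells carried the neutrophil markers. At least 3 of 10 such markers (Ly6g, Cxcr2, Csf3r, Retnlg, Camp, Ltf, Ngp, Mmp8, Mmp9 and Lcn2) were detected in 14 of 14 and 25 of 25 of these cells in the i.v. GFP+ libraries, in 2 of 2, 3 of 3, 20 of 20 and 8 of 11 in the GFP- libraries, and in 23 of 23 in naive blood. Outside them, 0, 1, 1 and 2 GFP- cells and 0 cells of every GFP+ library reached 3 neutrophil markers. Retnlg, a resistin-like secreted protein of neutrophils, was present in 14 of 14, 24 of 25, 17 of 20 and 10 of 11 cells of the 4 treated libraries with more than 3 such cells. Ngp, a gene of immature granules, was found in 7 of 14, 7 of 25, 11 of 20 and 2 of 11 of the same cells and in 0 of 23 in blood. Summed over whole libraries, the neutrophil list ran from 446 to 943 CPM in i.v. GFP+ libraries with 10 of 10 genes detected, and from 112 to 121 CPM in i.c.v. GFP+ libraries with 3 to 6 detected and Camp, Ly6g, Ngp and Retnlg at 0 in both.

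Microglia markers were also present in some of these cells in the GFP- sort. At least 3 of 8 microglia markers were found in 2 of 2, 2 of 3, 8 of 20 and 5 of 11 GFP- cells, against 0 of 14 and 1 of 25 in the i.v. GFP+ sort. Their median UMI count was 4633 against 3480 in the other cells of the i.v. female GFP+ library and 5154 against 917 in the i.c.v. female GFP- library, and whether such barcodes held 2 cells was not tested. In naive microglia, a single cell of 18961 UMIs, 36.4% of them S100a8 and S100a9, gave the library its 3551 CPM of S100a8 (95% interval 3434 to 3670) and 3471 CPM of S100a9, so that level belongs to 1 barcode. Naive blood held 912 and 815 CPM, and the astrocyte sort and the library labelled neurons held none. S100a9 exceeded S100a8 in the high cells of all 6 treated libraries that had them, at 1.37 to 2.07 S100a9 UMIs per S100a8 UMI, and was below it in naive blood (0.891). In the single naive microglia cell the ratio was 0.975, with an S100a9 share of 49.4% (95% interval 48.2 to 50.5%) that does not set the 2 genes apart.

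The 2 other members found in nearly all these cells were S100a6 and S100a11. S100a6 was present in 14 of 14 and 24 of 25 cells in the i.v. GFP+ libraries, at 7990 and 6754 CPM, and in 23 of 23 in blood, at 6764 CPM. S100a11 was present in 13 of 14 and 25 of 25, at 6026 and 3522 CPM, and in 23 of 23 in blood, at 4928 CPM. Both were present in all 2, 3, 20 and 11 such cells of the GFP- libraries, whereas the single such cell of naive microglia had S100a11 and no S100a6. S100a4, by contrast, was found in 0 of 14 and 1 of 25 cells and in 1 of 23 in blood, S100a10 in 1, 2 and 1, and S100b in none of them.

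With these cells removed, S100a8 stood at 2.68 and 2.05 CPM in the i.v. GFP+ libraries and at 2.62, 4.45, 12.4 and 6.33 CPM in the GFP- libraries, with 0 in both i.c.v. GFP+ libraries. S100a9 likewise stood at 3.53 and 3.49 CPM and at 3.02, 2.76, 18.6 and 12.8 CPM. Most of what remained came as single UMIs: 188 of the 213 other i.c.v. female GFP- cells with any held 1. Among these cells, S100a8 averaged 1.18 CPM in GFP+ and 6.45 CPM in GFP- libraries, given with no test because these UMIs chose the cells left out, and the i.v. GFP+ libraries were at least 7.70-fold above the limit of the i.c.v. ones. The part of free RNA in these residual UMIs was not tested.

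S100a4, a binder of non-muscle myosin linked to cell motility, was nearly absent from the i.c.v. GFP+ sort. It stood at 157 CPM (2601 UMIs) and 182 CPM (1798 UMIs) in the i.v. female and male GFP+ libraries and at 0.113 CPM (1 UMI) and 0.275 CPM (3 UMIs) in the i.c.v. ones. GFP- libraries lay between, at 29.6, 8.43, 15.3 and 14.7 CPM. Pooled over the mice of a route, the i.v. GFP+ sort held 823 times the S100a4 share of the i.c.v. GFP+ sort (95% counting interval 321 to 3021). The i.c.v. GFP- sort held 73.9 times the share of the GFP+ sort of the same mice (28.5 to 274). Against the i.c.v. female and male GFP+ libraries alone the first ratio was 1473 (264 to 58197) and 606 (207 to 2940), and the second, within each mouse, 135 (23.8 to 5381) and 53.3 (17.8 to 262). Cells with at least 3 neutrophil, 3 monocyte or 3 dendritic cell markers held 54.8 and 66.7% of the S100a4 UMIs of the i.c.v. female and male GFP- libraries. In the i.v. female and male GFP+ libraries such cells held 73.8 and 74.6%. Without these cells the second pooled ratio was 29.9 (11.3 to 112). In cells with at least 3 microglia markers and fewer than 3 of every other list it was 12.5 (4.11 to 61.6). Naive libraries held 1046 CPM in blood (1007 to 1085), 195 CPM in microglia (169 to 225), 5.00 CPM in astrocytes and 0.807 CPM in the library labelled neurons.

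S100a6, also called calcyclin, followed S100a4 between routes in the GFP+ libraries with a higher level. It stood at 301 and 431 CPM in the i.v. GFP+ libraries and at 3.06 and 0.734 CPM (27 and 8 UMIs) in the i.c.v. ones, a pooled ratio of 197 (142 to 283). The ratio was 114 against the i.c.v. female library alone, where 17 of the 27 UMIs lay in 1 cell, and 477 against the male. In the GFP- libraries it stood at 97.4, 23.0, 133 and 52.6 CPM, and without the S100a8/S100a9-high cells at 84.0, 18.1, 23.0 and 27.9 CPM. The removed cells thus held 83.0% and 47.2% of the S100a6 UMIs of the i.c.v. GFP- libraries. Blood was the highest library, at 2675 CPM (2613 to 2738).

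S100a10, which pairs with annexin A2 at membranes, and S100a11, a partner of annexin A1, showed the same order with smaller ratios. S100a10 stood at 103 and 146 CPM in i.v. GFP+, 8.83 and 6.97 CPM in i.c.v. GFP+, and 36.6, 11.5, 25.4 and 19.5 CPM in GFP- libraries. S100a11 stood at 180 and 223 CPM, 14.7 and 14.7 CPM, and 45.5, 15.6, 86.0 and 39.2 CPM in the same order. With all kept cells, both i.v. GFP+ libraries exceeded every other treated library and both i.c.v. GFP+ libraries lay below every other treated library for each gene. The i.v. GFP+ libraries lay above the i.c.v. GFP+ libraries for 16.4% of all genes tested. The share of genes with the full order was not counted. Without the S100a8/S100a9-high cells, S100a11 ran from 12.0 to 41.1 CPM in i.v. GFP- and from 24.3 to 26.5 CPM in i.c.v. GFP- libraries. The lower i.v. GFP- library then lay below both i.c.v. GFP+ libraries, which stayed at 14.7 CPM. The pooled i.v. to i.c.v. ratio in GFP+ MLCs was 15.3 (13.0 to 18.1) for S100a10 and 13.3 (11.8 to 15.1) for S100a11.

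S100a13, which helps export growth factors that lack a signal peptide, and S100a1, a regulator of calcium handling, spread far less. S100a13 stood at 71.5 and 59.1 CPM in i.v. GFP+, 41.5 and 37.4 CPM in i.c.v. GFP+, and 48.5, 38.8, 51.7 and 44.0 CPM in GFP- libraries. S100a1 stood at 47.4, 37.0, 32.4 and 32.8 CPM in the GFP+ and 27.4, 15.5, 29.6 and 23.1 CPM in the GFP- libraries, so all 4 GFP+ libraries lay above all 4 GFP- libraries. S100b was low in all 8 treated libraries, at 3.09, 4.56, 2.26 and 1.10 CPM in GFP+ and 4.83, 3.37, 10.4 and 4.76 CPM in GFP- libraries. It was the top member with S100a1 in the naive astrocyte sort, at 356 CPM (339 to 373) against 354 CPM (337 to 371), intervals that overlap. In the library labelled neurons S100b stood at 213 CPM (198 to 228), and in blood it had no UMI, which allows up to 1.14 CPM.

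The first comparison set GFP+ MLCs against GFP- microglia by the quasi-likelihood test of edgeR over all genes, in which 32.5% of 11756 genes were called at an adjusted p under 0.05, 16.6% as higher in GFP+. Of the 9 members, 1 was called. S100a1 averaged 37.4 CPM ± 6.99 in GFP+ and 23.9 CPM ± 6.22 in GFP- libraries (SD, n = 4 each), was higher in GFP+ in 4 of 4 mice (exact permutation p = 0.0286, the smallest that 4 against 4 allows), and had a log2 fold change of 0.93 ± 0.23 (SE) with an edgeR adjusted p of 0.0155. It remained called without each of the 8 libraries in turn, and groups that did not overlap with GFP+ on top made up 6.29% of all genes tested. The share of cells with an S100a1 UMI, after thinning each cell to 500 UMIs, was 1.94, 1.10, 0.763 and 0.933% in GFP+ and 0.897, 0.571, 0.896 and 0.734% in GFP- libraries (exact permutation p = 0.114). Thinned to 1000 UMIs, which left out 783 to 2745 cells per library, the share averaged 2.93% against 1.46% (p = 0.0286 in the same exact test), and unthinned 10.1% against 3.09%.

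The other 8 members missed the threshold between the sorts. S100a4 had a log2 fold change of 2.69 ± 1.43 (adjusted p = 0.176), S100a6 of 1.59 (adjusted p = 0.406), S100a10 of 1.85 (0.144) and S100a11 of 1.52 (0.228) in edgeR, each higher in GFP+ in 2 of 4 mice. As means of log2(CPM + 1), S100a4 and S100a6 turned to -0.21 and -1.05, and with the mouse as a block the fit gave 0.49 and -0.81. S100a8 and S100a9 gave -0.28 and -0.19 (adjusted p of 0.928 and 0.951), signs that turned to 2.10 and 1.94 without the i.c.v. female GFP- library. S100a13 gave 0.49 (0.133) and S100b -0.81 (0.224), the latter lower in GFP+ in 3 of 4 mice by level. The 9 members had a median log2 fold change of 0.93, against 0.01 over all genes tested. The members' median was 0.44 with the mouse as a block, 2.99 in the i.v. mice alone and -2.04 in the i.c.v. mice alone.

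Within the i.v. mice alone, 8 of 9 members were called, all as higher in GFP+, in a fit of 2 against 2 libraries that called 27.0% of genes, 14.7% as higher. The edgeR log2 fold changes were 3.56 ± 0.53 for S100a4 (adjusted p = 0.00539), 2.99 ± 0.63 for S100a6 (0.0167), 3.11 ± 0.47 for S100a11 (0.00587) and 2.77 ± 0.51 for S100a10 (0.0106). S100a8 and S100a9 rose by 4.33 ± 0.71 (0.00732) and 4.17 ± 0.72 (0.00863), S100a1 by 1.37 ± 0.30 (0.0186) and S100a13 by 0.96 ± 0.19 (0.0147). S100b, at 0.28 ± 0.39, had an adjusted p of 0.625.

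Within the i.c.v. mice alone, 6 of 9 members were called, all as lower in GFP+, where 8.69% of genes were called, 6.31% as lower. S100a4 fell by 5.95 ± 0.35 on the log2 scale (edgeR adjusted p = 0.00266), S100a6 by 5.53 ± 0.67 (0.0114), S100a11 by 1.94 ± 0.37 (0.0318) and S100a10 by 1.35 ± 0.21 (0.0187). Pooled over these mice, the GFP- to GFP+ ratio was 52.8 for S100a6, 4.29 for S100a11 and 2.89 for S100a10. It was 14.3, 1.73 and 2.91 without the S100a8/S100a9-high cells. Without cells of at least 3 neutrophil, monocyte or dendritic cell markers it was 8.54, 1.37 and 1.98. S100a8 and S100a9 were called as well (edgeR adjusted p of 0.0186 and 0.0154), with their ratios to the limit of 3 UMIs given above. S100a1 at 0.47 ± 0.16 (adjusted p = 0.123), S100a13 at -0.12 (0.610) and S100b at -2.04 ± 0.51 (0.0613) were not called. Beside S100b, the summed astrocyte list ran from 114 to 158 CPM in these GFP- and from 28.2 to 39.5 CPM in these GFP+ libraries. The oligodendrocyte list ran from 252 to 310 CPM against 45.2 to 50.5 CPM.

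**Figure D2:**
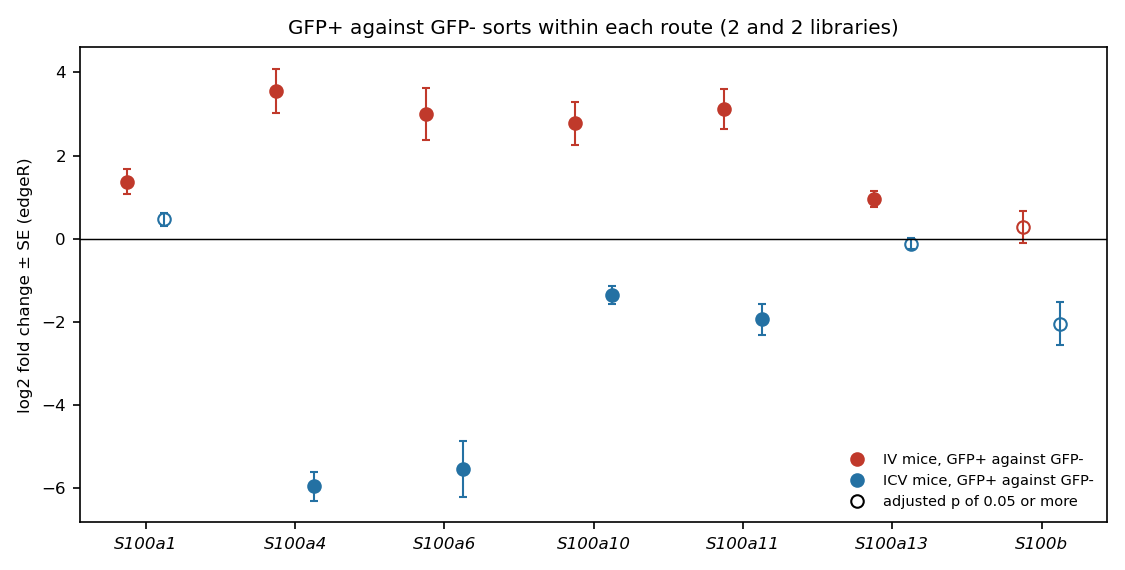
Log2 fold change of GFP+ against GFP- libraries (edgeR, points with SE bars) within the i.v. mice and within the i.c.v. mice for the 7 members other than S100a8 and S100a9; open points have an adjusted p of 0.05 or more. S100a4 and S100a6 lie at 3.56 and 2.99 in i.v. mice and at -5.95 and -5.53 in i.c.v. mice, while S100a1 lies above 0 in both.

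Whether the sort difference changed with route was tested as an interaction, which called 1.91% of 12540 genes, 1.80% as higher in i.v. mice. Of the 9 members 6 were called, at 9.52 ± 0.90 for S100a4 (edgeR adjusted p = 0.00673), 8.51 ± 1.15 for S100a6 (0.0172), 5.05 ± 0.71 for S100a11 (0.0181) and 4.13 ± 0.65 for S100a10 (0.0227), and S100a8 and S100a9 at 0.0167 and 0.0146. S100a13 at 1.09 (0.0694), S100b at 2.32 (0.136) and S100a1 at 0.91 (0.254) were not. With the mouse as a block, 5.41% of genes and 8 members were called, S100a13 (0.0164) and S100b (0.0465) added. Without cells holding at least 3 neutrophil, 3 monocyte or 3 dendritic cell markers, 0.316% of genes and 4 members were called, S100a11 (0.0933) and S100a10 (0.154) being lost. In cells with microglia markers alone, 0.416% of genes and 4 members were called, S100a4 at 6.07 (0.0568) and S100a10 (0.115) being lost. The called members included S100a8 and S100a9, and that set still held S100a8/S100a9-high cells of the i.c.v. male GFP- library. Without the i.c.v. female GFP+ library 2 members and 0.377% of genes were called, and without the i.c.v. female GFP- library 3 members and 0.311%.

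Directly between the routes, 2.78% of 12540 genes differed in GFP+ MLCs, 2.56% as higher in i.v. mice, and 7 of 9 members did, all higher in i.v. mice. The log2 fold changes were 9.73 ± 0.73 for S100a4 (edgeR adjusted p = 0.00119), 7.76 ± 0.95 for S100a6 (0.00622), 4.10 ± 0.48 for S100a10 (0.00584), 3.88 ± 0.53 for S100a11 (0.00762) and 0.84 ± 0.17 for S100a13 (0.0404). S100a13 remained called in 3 of 8 fits that leave out a library, and was lost under the stricter barcode filter (0.0587) and upper-quartile normalization (0.0546). S100a8 and S100a9 were called at 0.0122 and 0.00892, S100a1 at 0.48 (0.395) and S100b at 1.30 ± 0.51 (0.255) were not. The members' median was 4.10, against 0 over all genes tested, and was 2.53 without cells of neutrophil, monocyte or dendritic cell markers and 2.79 in cells with microglia markers alone. The i.v. libraries lay above the i.c.v. libraries for all 9 members, as they did for 16.4% of genes, and an exact permutation test of 2 against 2 cannot go below 0.333. Calls fell over all genes without either i.c.v. GFP+ library, to 0.323% of genes and 1 member (S100a4) without the female and to 1.38% and 4 members without the male.

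In GFP- microglia, 0 of 12540 genes were called between the routes, with 1063 at an unadjusted p under 0.05 and 66 called by DESeq2. S100a8 had a log2 fold change of -4.56 ± 1.08 in i.v. against i.c.v. mice and S100a9 of -4.30 ± 1.02, each with an edgeR adjusted p of 0.411. S100a4 at 0.21 (0.912), S100a6 at -0.75 (0.759) and S100a11 at -1.17 (0.573) were not called either.

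The S100a4, S100a6, S100a10 and S100a11 of i.v. GFP+ MLCs sat mostly in cells with markers of other myeloid types. Cells with at least 3 neutrophil, 3 monocyte or 3 dendritic cell markers numbered 139 and 111 in the i.v. GFP+ libraries, 0 and 0 in the i.c.v. GFP+ libraries and 6 to 26 in the GFP- libraries. They held 73.8 and 74.6% of the S100a4 UMIs of the i.v. GFP+ libraries, 73.5 and 77.1% of S100a6, 70.3 and 69.7% of S100a10, and 64.9 and 73.6% of S100a11. The shares held were smaller for S100a1, at 10.9 and 21.1%, and for S100a13, at 18.2 and 27.4%.

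Dendritic cell markers (Flt3, Zbtb46, Xcr1, Clec9a, Cd209a, Itgax and Batf3) marked 98 and 77 cells, 2.93 and 3.40% of the i.v. GFP+ libraries, against 0 and 0 in i.c.v. GFP+ and 2 to 9 in GFP- libraries. In them S100a4 stood at 904 and 939 CPM, S100a6 at 1450 and 1679 CPM, S100a10 at 575 and 731 CPM and S100a11 at 822 and 844 CPM, and S100a8 at 1.36 and 76.6 CPM. Monocyte markers marked 41 and 18 cells, 9 and 8 of which were also S100a8/S100a9-high, with S100a4 at 1533 and 411 CPM and S100a6 at 3440 and 3516 CPM. Summed over the libraries, the dendritic cell list ran from 259 to 363 CPM in i.v. GFP+ and from 29.1 to 69.2 CPM in i.c.v. GFP+ libraries with 7 of 7 genes detected in both. The monocyte list ran from 280 to 366 CPM with 9 of 9 genes detected, and from 32.7 to 103 CPM with 4 to 5 detected, Chil3, Hp and Plac8 being among those at 0 in both i.c.v. libraries. In bulk sums, fewer cells of a type and less RNA per cell cannot be told apart.

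**Figure D3:**
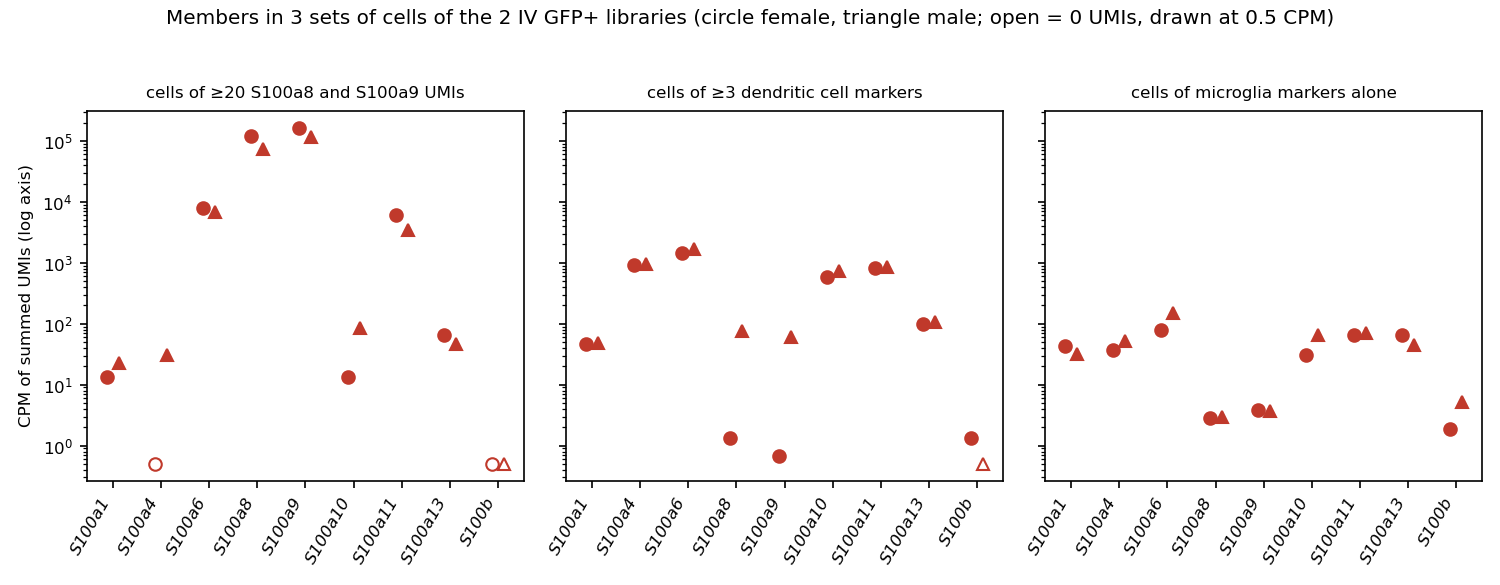
CPM of the 9 members in the i.v. female and i.v. male GFP+ libraries within 3 sets of cells: those with 20 or more S100a8 and S100a9 UMIs, those with at least 3 dendritic cell markers, and those with microglia markers alone; open symbols mark 0 UMIs, drawn at 0.5 CPM. S100a4 and S100a10 peak in the dendritic cell marker set, while S100a6, S100a8, S100a9 and S100a11 peak in the first set.

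Most i.v. GFP+ cells with S100a4 also had S100a6. Outside the S100a8/S100a9-high cells, 217 and 150 i.v. GFP+ cells had an S100a4 UMI, and 92.6 and 89.3% of them had S100a6, against 3.92 and 3.73% of the remaining cells. A further 122 and 78 cells had S100a6 without S100a4. S100a11 was found in 90.3 and 88.0% and S100a10 in 75.1 and 71.3% of the S100a4-containing cells. The cells with S100a4 were also deeper, with a median of 11796 and 14354 UMIs against 3042 and 1183, which raises the share for any gene. S100a13 was found in 67.7 and 62.7% of them against 19.0 and 11.8% of the remaining cells, and S100a1 in 33.2 and 38.7% against 13.2 and 8.70%. In the i.c.v. GFP+ libraries 1 and 2 cells had an S100a4 UMI. Thinned to 500 UMIs per cell, the share of cells with S100a6 was 4.37 and 4.63% in i.v. GFP+ libraries and 0.0382 and 0.0566% in i.c.v. ones, and that with S100a4 was 2.18 and 2.29% against 0 and 0, with 0 of 482 cells in the library labelled neurons.

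Removing all cells with 3 neutrophil, monocyte or dendritic cell markers lowered the i.v. GFP+ levels but left the routes apart. S100a4 then stood at 46.5 and 55.2 CPM in i.v. GFP+ libraries and still at 0.113 and 0.275 CPM in the i.c.v. ones, a pooled ratio of 245 (95.4 to 901), and S100a6 at 89.9 and 118 CPM against 3.06 and 0.734 CPM, a ratio of 56.4 (40.4 to 81.1). The ratio was 5.27 for S100a10 and 4.82 for S100a11. In this fit 0.779% of genes and 6 members were called between routes, S100a4 at a log2 fold change of 7.94, S100a6 at 5.90, S100a10 at 2.53 (edgeR adjusted p = 0.0435) and S100a11 at 2.33 (0.0314), with S100a13 no longer among them (0.258). Most of the S100a4 UMIs remaining in both i.v. GFP+ libraries lay in cells that reached 3 markers of none of 11 lists. S100a4 stood there at 286 and 255 CPM in the i.v. GFP+ libraries and 0 in the i.c.v. ones. The class of those cells is not known, so the ratio of 245 rests mostly on unclassified cells.

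Cells with at least 3 microglia markers and fewer than 3 of every other list, a set chosen after seeing the data, numbered 763 and 412 in the i.v. GFP+, 870 and 1168 in the i.c.v. GFP+ and 2322 to 4105 in the GFP- libraries. S100a4 stood at 36.8 and 52.7 CPM in i.v. GFP+, 0 and 1.29 CPM in i.c.v. GFP+ and 15.7, 3.81, 9.97 and 6.23 CPM in GFP- libraries, and S100a6 at 79.3 and 148 CPM, 0 and 0, and 14.01, 4.19, 17.8 and 17.1 CPM. The i.v. GFP+ libraries again exceeded every other treated library for both genes, and the share of all genes with that order was not counted. Of the genes tested in these cells 0.795% were called between routes in GFP+, and 3 members were: S100a4, S100a6 and S100a11. S100a4 stood at 6.23 (edgeR adjusted p = 0.0152) and S100a11 at 2.79 (0.0102), whereas S100a10 at 2.38 had 0.0959. S100a6 had an edgeR adjusted p of 0.00329, its i.v. mean being 89.1-fold above the limit of 3 UMIs per i.c.v. library. Between the sorts, S100a1 remained higher in GFP+ by 1.18 (0.0207), with 43.1, 31.5, 23.6 and 23.2 CPM against 19.9, 9.32, 21.8 and 16.2 CPM, where 23.9% of genes were called. S100a11 was also called, at 1.89 (0.0485), but was higher in GFP+ in 2 of 4 mice, with 65.1 and 71.8 against 13.8 and 5.90 CPM in the i.v. mice and 8.42 and 14.2 against 18.2 and 15.7 CPM in the i.c.v. mice (exact permutation p = 0.286). S100a8 in these cells was at 0 and 0 against 16.1 and 27.6 CPM in the i.c.v. mice. In the i.v. mice it was at 2.83 and 2.93 CPM against 3.19 and 3.62 CPM, a pooled ratio of 0.834 with an exact interval of 0.402 to 1.63. The edgeR adjusted p over both routes was 0.0568. Of the 1888 S100a8 UMIs of the i.c.v. male GFP- library, 8.21% lay in this set. All cells of that library outside the S100a8/S100a9-high ones held 49. The set thus still held some of its 3 S100a8/S100a9-high cells with fewer than 3 neutrophil markers. They gave most of the 27.6 CPM.

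Cells with CNS-associated macrophage markers were frequent in GFP+ MLCs of both routes, at 1546 and 821 i.v. and 868 and 1330 i.c.v. cells, and had little S100a4 or S100a6. S100a4 stood at 15.7 and 13.2 CPM in the i.v. and 0.174 and 0 CPM in the i.c.v. cells of that set, and S100a6 at 32.6 and 35.8 CPM against 0.872 and 0.913 CPM. The difference between routes was thus also present in this set, which was not tested on its own.

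**Figure D4:**
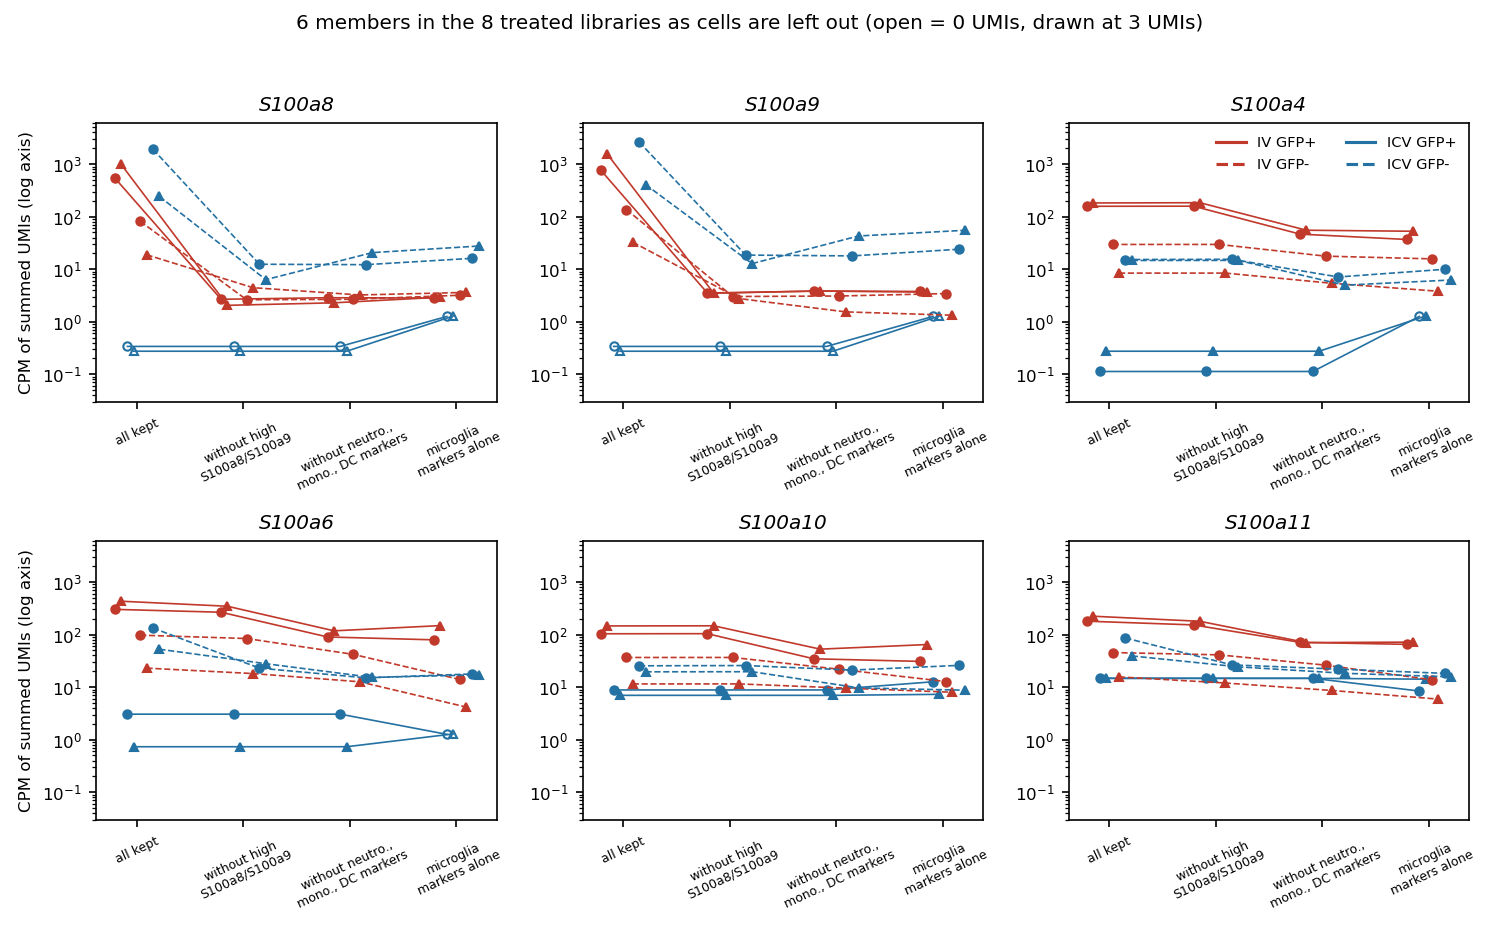
CPM of 6 members in the 8 treated libraries within 4 cell sets: all kept cells, without S100a8/S100a9-high cells, without cells of neutrophil, monocyte or dendritic cell markers, and microglia markers alone; red marks IV and blue ICV, solid lines GFP+ and dashed lines GFP-, circles female and triangles male mice. S100a4 in the i.v. GFP+ libraries falls from 157 and 182 CPM to 36.8 and 52.7 CPM across the sets and stays above the i.c.v. GFP+ libraries in each, while S100a8 and S100a9 drop to at most 18.6 CPM in every library when only the high cells are left out.

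Naive levels placed the members in known cell populations. S100a4, S100a6, S100a10 and S100a11 peaked in blood, at 1046, 2675, 812 and 553 CPM, S100a1 and S100b in the astrocyte sort, and S100a13 in the library labelled neurons at 234 CPM (218 to 250) beside 227 CPM (214 to 241) in astrocytes, intervals that overlap. In naive microglia, 38.3% of the S100a4 UMIs lay in 4 cells with dendritic cell markers and 51.3% in cells of no list, and the 1102 cells with microglia markers alone held 2.59%, at 7.37 CPM. The naive microglia level of 195 CPM therefore came from 14 cells of 1274.

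Genes outside the 9 members whose level followed a member over the 12 libraries are given by Pearson r of log2(CPM + 1) among 11659 genes. This is a description of libraries that share cell types and depth. Closest to S100a4 were Ltb4r1 (0.974), a leukotriene B4 receptor, Emb (0.972) and Dpp4 (0.970), and closest to S100a6 were Cd24a (0.947), Anxa2 (0.940) and Fam69a (0.897). S100a9 was followed by Wfdc21 (0.952), Anxa1 (0.916) and Mcemp1 (0.911). S100b was followed by Gnao1 (0.977), a neural G protein subunit, S100a16 (0.977) and Gpm6b (0.976), a membrane glycoprotein of neural cells.

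Partners and receptors of the family were counted over a list of 14 genes, of which 13 were tested. Between the sorts, where 32.5% of genes were called and 16.6% as higher in GFP+, 3 were called, all as higher in GFP+: Cacybp, which binds S100a6, at 0.77 ± 0.12 (edgeR adjusted p = 0.00287), Anxa5 at 1.29 ± 0.30 (0.0117) and Anxa11, a partner of S100a6, at 0.82 ± 0.23 (0.0242). With the mouse as a block, Anxa11 was no longer called (0.0708) and Il1a, which encodes interleukin-1 alpha, was called as lower at -0.78 (0.0229). In cells with microglia markers alone, where 23.9% of genes were called, 3 of 12 tested partners were called as higher and 1 as lower. The called genes there were Anxa11, Anxa5, Cacybp and Tlr4. Within the i.v. mice alone 8 of the 13 were called as higher in GFP+, where 14.7% of genes were, and within the i.c.v. mice alone 0 were called as higher and 2 as lower (Anxa1 and Anxa2), where 6.31% of genes were lower. The list's median was 0.77, against 0.01 over all genes. Between routes in GFP+ MLCs, where 2.56% of genes were called as higher in i.v. mice, 3 others were: Anxa2, which binds S100a10, at 4.77 ± 0.57 (0.00584), Anxa1, which binds S100a11, at 6.14 ± 0.84 (0.0077) and Ahnak, a scaffold bound by the S100a10 and annexin A2 complex, at 3.49 ± 0.44 (0.00635). The list's median in that comparison was 0.59, against 0.

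Anxa2 stood at 79.6 and 111 CPM in i.v. GFP+, 3.28 and 4.13 CPM in i.c.v. GFP+ and 28.2, 8.58, 27.6 and 14.5 CPM in GFP- libraries, the order that S100a10 showed. Anxa1 stood at 55.0 and 92.0 CPM, 0.679 and 1.47 CPM, and 11.9, 3.06, 63.3 and 19.7 CPM. Cacybp did not follow the route, at 83.5, 89.4, 78.0 and 95.9 CPM in GFP+ and 53.1, 64.4, 63.0 and 66.9 CPM in GFP- libraries. Tlr4, a receptor for S100a8 and S100a9, stood at 30.4 to 52.3 CPM and Ager, the receptor for advanced glycation end-products, at 0.303 to 1.38 CPM in the treated libraries.

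Of 7 further S100 genes, only S100a16 passed the filter on low counts. It stood at 0.905 to 4.44 CPM in the treated libraries, at 395 CPM in the astrocyte sort and 504 CPM in the library labelled neurons, with none in blood, and it was not called between the sorts at -0.61 (edgeR adjusted p = 0.354). Within the i.c.v. mice alone it was called as lower in GFP+ at -1.77 (edgeR adjusted p = 0.0364), and within the i.v. mice alone it stood at 0.53 (0.518). In the i.c.v. mice the summed oligodendrocyte list ran from 252 to 310 CPM in GFP- and from 45.2 to 50.5 CPM in GFP+ libraries, and the astrocyte list from 114 to 158 against 28.2 to 39.5 CPM. In the i.v. mice they ran from 57.9 to 69.1 against 39.1 to 105 CPM and from 151 to 159 against 41.2 to 64.4 CPM. A link to these lists was not tested. The other 6 lay at or below 1.25 CPM in every library, S100z at 0 in all.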

How the data were processed

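Single-cell 3′ libraries of 8 sorted brain samples from 4 treated mice and 4 naive samples were analysed. The authors deposited raw UMI counts per gene and barcode, made with Cell Ranger (3.1.0 per the file headers) against mm10 per the submitters' notes, with no normalization. Barcodes entered with 200 or more genes and no more than 10% of UMIs mitochondrial, which kept 84.5 to 93.9% of treated and 13.6 to 51.0% of naive barcodes, and no doublet caller was run. Pairs of libraries shared 0 to 8 barcodes, up to 0.348%.

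Counts were summed per library and tested with edgeR 4.0.16 (R 4.3.3; TMM, filterByExpr, glmQLFit and glmQLFTest, Benjamini-Hochberg over all genes tested, called under 0.05). Route, interaction and sort contrasts used the 8 treated libraries, the first 2 with 4 groups of sort and route, and the IV and ICV mice were also fitted alone. Single values were compared by exact two-sided permutation tests (SciPy 1.17.1), and shares carry 95% exact Clopper-Pearson intervals. On simulated data with 200 genes changed 4-fold, the sort test recovered 94.5%, the route test 87.5% in GFP+ and 80.0% in GFP- among genes tested, and the interaction 70.0%. Scaled by CPM alone, the median of all genes shifted by -0.25 between the sorts (log2), by -0.36 in IV mice, by -0.15 in ICV mice and by -0.10 between routes in GFP+; S100a1 stayed 0.90 above that median. Ratios against each i.c.v. GFP+ library alone were added after seeing the data.

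GFP+ and GFP- libraries of a mouse share that animal, so the mouse as a block was an alternative; deviations from the group means correlated at 0.20, -0.28, -0.33 and 0.01 within mice. Other alternatives were DESeq2 1.42.0, upper-quartile normalization, no or stricter filters, sex as a covariate, other cell sets and leaving out each library. All 9 members were named, with listed partners that were called and, outside the members, the 3 genes of highest Pearson r for S100a4, S100a6, S100a9 and S100b. Members, marker lists and partner lists were chosen with earlier results of these data known. Positions come from GENCODE M21 (GRCm38; 30934 of 31054 features matched), promoters from RefSeq, which listed 8 of 9 members.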

Additional observations from a re-analysis of the deposited data

Results flagged for a closer look

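The i.c.v. female GFP- library stood apart from the other 3 GFP- libraries for S100a8 and S100a9, with a gap to the next library of 0.882 and 0.856 of the whole range. Of its S100a8 and S100a9 UMIs, 99.3% lay in 20 cells, all with at least 3 neutrophil markers. Of 18 groups looked at in this way 2 held such a library, and chance gives about 1 in 20. Both rest almost wholly on the same 20 cells and are a single observation.

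The difference between GFP+ and GFP- libraries depended on route for 6 members, by a test of the interaction itself. The fitted values were 9.52 on the log2 scale for S100a4, 8.51 for S100a6, 5.05 for S100a11 and 4.13 for S100a10. For S100a8 and S100a9 the fit gave 20.5 and 20.8, which rest on libraries at 0 and are no measure of size.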

How the results depend on the processing

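Of 795 alternative values, 700 kept their direction and their side of the threshold, 29 reversed, 36 fell below the threshold, 20 passed it and 10 counts moved by more than 1.5 times. Members called higher in GFP+ numbered 1, against 2 in cells with microglia markers alone, 8 in IV mice alone and 0 in ICV mice alone, and members called lower numbered 0 against 6 in ICV mice alone. Between routes in GFP+, 7 were called, against 3 in cells with microglia markers alone and 1 to 7 leaving out each library, where 0.323 to 2.23% of genes were. Between routes in GFP-, 0 were called, against 2 (and 0.412% of genes) without a filter on low counts. For the interaction 6 were called, and 2 to 6 leaving out each library, where 0.311 to 1.81% of genes were. The share of S100a8/S100a9-high cells, higher in GFP+ by 0.163 percentage points, ranged from -0.0777 to 0.290 leaving out each library.

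Between the sorts, ICV mice alone reversed S100a4 (-5.95), S100a6 (-5.53), S100a10 (-1.35), S100a11 (-1.94) and S100a13 (-0.12), and IV mice alone reversed S100a8 (4.33), S100a9 (4.17) and S100b (0.28), fits that leave out the mice of the other route. With the mouse as a replicate block S100a6 turned to -0.81, while S100a1 stayed called at 0.94 (edgeR adjusted p = 0.0332); outside the interaction the block changed no other member's call. With sex as a covariate S100a8 and S100a9 turned to 0.32 and 0.27, and leaving out each library they ranged from -1.37 to 2.10 and from -1.39 to 1.94. Between routes in GFP-, S100a6 turned to 0.89 without the S100a8/S100a9-high cells and 0.72 without marker cells and ranged from -2.16 to 0.10 leaving out each library, S100a4 from -0.97 to 0.87, and S100a10 from -1.11 to 0.59, with 0.077 under the stricter barcode filter and 0.0082 under upper-quartile normalization. The share of cells with S100a13, -0.0770 points at 500 UMIs, was 1.12 at 1000 and 8.08 at own depth, and that with S100b 0.286 at own depth. The causes of these reversals were not tested. Counts of members between routes rest on 2 mice per route, and intervals cover counting error only.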
